A study of Bos grunniens with 12 samples.

Results

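The acrosomal vesicle genes of the yak testis were the rows of the deposited gene table whose GO annotation holds the term named exactly acrosomal vesicle, without the 4 rows whose symbols start with ADAM, TSSK, CATSPER or CFAP. The rule chose 54 of 20953 rows, and it used no measured value. The acrosome is a Golgi-derived vesicle that grows over the nucleus of the round spermatid and caps the head of the sperm. It holds enzymes and binding proteins that are used at the zona pellucida, the coat of the egg, and it is released by regulated exocytosis in the acrosome reaction. Its genes are mostly transcribed after meiosis begins, in late spermatocytes and in spermatids.

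Testes of 3 yaks (Bos grunniens) aged 1.5 years, the Y group, and of 3 yaks aged 5 years, the M group, were sequenced as an m6A-IP library and an input library per animal. The input libraries give the mRNA level as FPKM (sequenced fragments relative to transcript length in kilobases and to library depth). The animals were healthy, and the labels name no agent given to them. The younger testes were taken by castration and the older testes from killed yaks, so age and the way of collection cannot be told apart. The study asked what differs in the testis before (Y) and after (M) sexual maturity.

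The groups rest on the age in the sample titles. For each of the 12 samples, the record's field for developmental stage names the other stage, and the growth protocol gives the ages with the letters M and Y exchanged, so each direction given here holds for the ages in the titles and would turn if the stage field were right. The label was checked against the 3 acrosome markers ACRV1, SPACA1 and ZPBP, of which only ACRV1 carries the term in the table. All 3 were well above 0 in each library, also in the Y group, whose label is before sexual maturity, and the elongating spermatid markers ODF1 and GAPDHS were so too. ACRV1, ODF1 and GAPDHS, genes of spermatids, were higher in each Y library than in M replicates 1 and 3, and whether the titles or the stage field give the true age was not tested. The summed FPKM of the 3 acrosome markers lay between 114 and 157 in the Y libraries and between 45.7 and 137 in the M libraries. M replicate 1 stood apart with the lowest sum, and M replicate 2 lay within the range of the Y libraries. The counts of lower genes are given with and without these libraries.

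Symbols of the table had to be read with care. Of its symbols, 3871 stand on more than 1 identifier, on 11160 rows, and 25 of the 54 rows of the term carry such a symbol. For 12 of the 54 rows the other GO terms describe a protein other than the one the symbol names, for 6 rows the terms leave this open, and for 36 rows terms and symbol match. Rows of the first kind are called here by the symbol they are listed under, and no other name was given to them. Among rows whose terms and symbol match, TRIM36, CAPZA3, SPACA9, FAM170B, NOTCH1 and CALCR each stand on 2 identifiers. ATP6V1E1 stands on 5 and RAB3A on 6. The values given are those of the row with the term, and other rows of these symbols are not given.

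Over the 54 genes the input libraries held a summed FPKM of 1216, 1067 and 1178 in the Y group and of 486, 979 and 730 in the M group. As a share of the FPKM of the library these sums were 0.869%, 0.799% and 0.858% in the Y group and 0.418%, 0.747% and 0.565% in the M group. The 3 M libraries were thus below the 3 Y libraries, M replicate 1 by the most and M replicate 2 by the least. In whole tissue, fewer cells of a type and less RNA per cell cannot be told apart.

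The 54 genes covered a wide range of levels. Among them 49 averaged 0.5 FPKM or more across the input libraries and were tested, among 12437 genes in all. DKKL1, a Dickkopf-like glycoprotein of the acrosome, had the highest mean level with an FPKM of 86.8, and PRSS37, a protease-like protein of spermatids, came next with 80.5. TRIM36, a RING-type ubiquitin ligase of the acrosome, had a mean FPKM of 72.3. The row listed as ARSA followed with 53.8, the row listed as SAMD8 with 51.7 and CAPZA3 with 51.3, and ABHD2, AKAP3, ACRBP and the row listed as IQCF5 lay between 37.0 and 47.6. The 5 genes that were not tested had a mean FPKM of at most 0.346. Of these, TMEM63B (ENSBGRG00000009756) and DEFB127 were listed at 0 in each library, while TCTEX1D4, CEP131 and SCNN1A were low but above 0 in most.

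Most acrosomal vesicle genes had lower values in the M group. Their log2 fold change, taken as M minus Y on log2(FPKM + 0.1), was below 0 for 39 of the 49 genes (79.6%), against 46.5% of all genes tested. Its median was -0.53 over the 49 genes and 0.04 over all genes tested. At an unadjusted p-value under 0.05, 15 of the 49 genes (30.6%) were lower in the M group, against 10.9% of all genes, and 3 (6.12%) were higher, against 14.2%. With a fold change of more than 2 added, 10 genes (20.4%) were lower, against 5.25% of all genes, and 0 were higher, against 4.01%. The 10 genes were SPACA4, PRSS37, CAPZA3, SPACA9, ACRV1, ATP6V1E2, TRIM36, AKAP3, TEX22 and the row listed as KCNH6.

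In the limma fit the adjusted p-value was under 0.05 for 0 of the 49 genes and for 0.0322% of all genes. A gene is therefore said to pass the test where its unadjusted p-value was under 0.05, and its adjusted p-value is printed beside it. The adjusted p-values of the 10 genes ranged from 0.154 to 0.183. The call of the 10 genes rested on M replicate 1: without it 0 of the 49 genes passed both thresholds, against 1.31% of all genes, and the unadjusted p-value was under 0.05 for 10 genes in either direction, against 18.5% of all genes. Of the 10 called genes, 6 still passed the test without M replicate 1, and the log2 fold changes of the 10 went from between -1.61 and -1.12 to between -0.93 and -0.62. PRSS37, CAPZA3 and AKAP3 passed the test in each of the 6 fits that left out a library. Without M replicate 2, in contrast, 18 genes were lower by both thresholds, against 8.98% of all genes, and the adjusted p-value was under 0.05 for 19, against 19.3% of all genes, so that the rise was not confined to the acrosomal vesicle genes. Without Y replicate 1, Y replicate 3 or M replicate 3 the count of lower genes was 3, 5 and 5. Over all genes, 2.92%, 3.1% and 4.34% were lower in these fits. Each of the 10 genes had a log2 fold change below 0 whichever of the 6 libraries was left out. This could not come out otherwise for genes with every M library below every Y library, which were all of the 10 but ACRV1 and ATP6V1E2. The median over the 49 genes was -0.22 without M replicate 1.

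**Figure D1:**
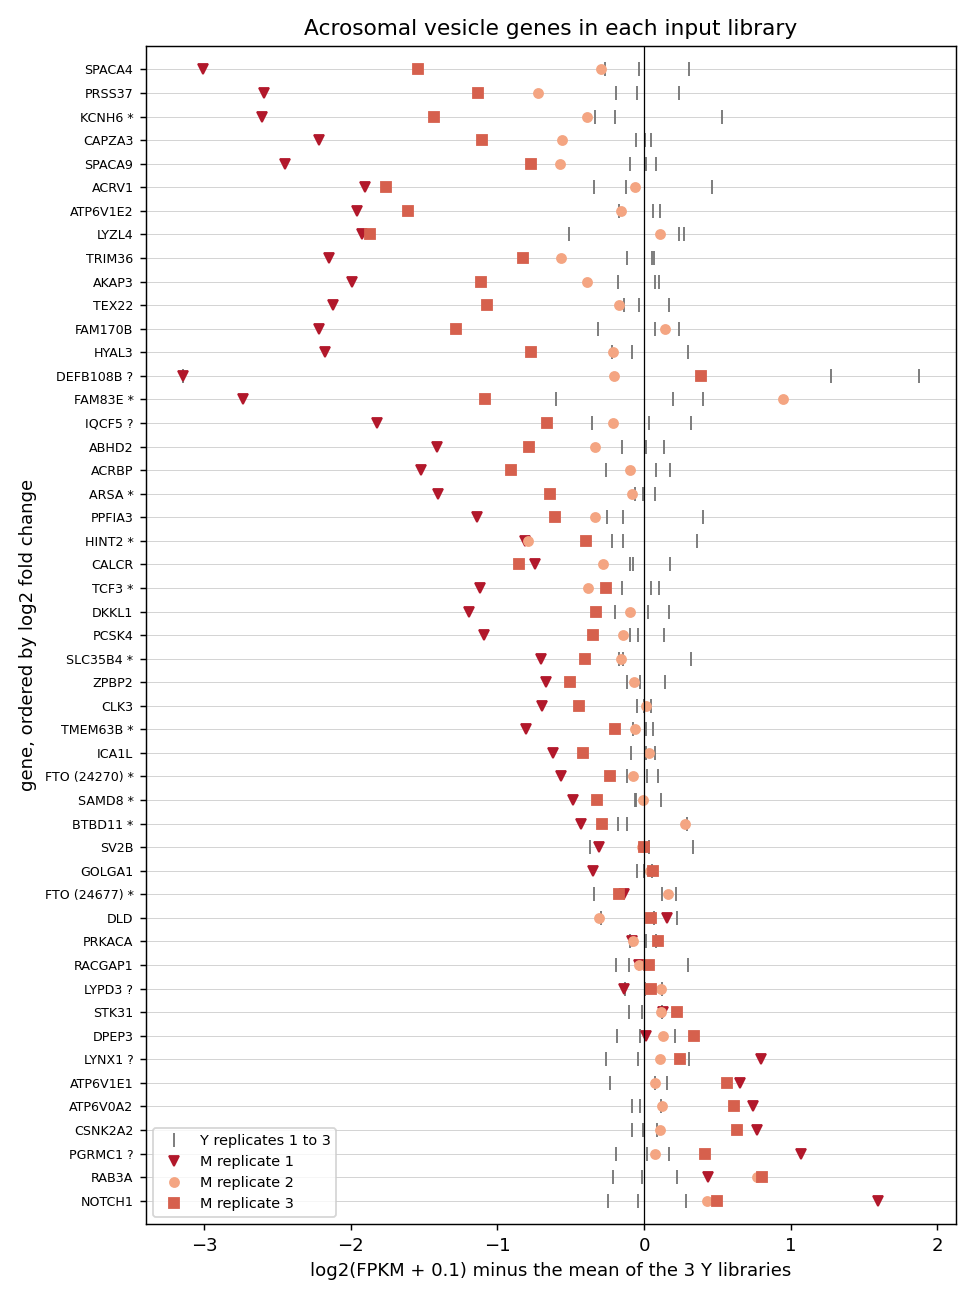
Each row is 1 of the 49 tested genes, and the horizontal axis is its log2(FPKM + 0.1) minus the mean of the 3 Y libraries (ticks, Y libraries; symbols, M replicates 1 to 3; an asterisk marks a row whose terms go against its symbol, a question mark an open one, and the number in brackets ends the identifier). M replicate 1 is far to the left for the upper rows, where SPACA4 and PRSS37 stand, and M replicate 2 stays near the Y libraries.

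The M libraries kept a common order. M replicate 1 was the lowest of the 6 libraries for 33 of the 49 genes (67.3%), against 35.5% of all genes tested. The FPKM of 30 genes (61.2%) went from M replicate 1 over M replicate 3 to M replicate 2, against 28.2% of all genes. The median difference from the mean of the Y libraries was -0.81 in M replicate 1, -0.39 in M replicate 3 and -0.07 in M replicate 2. In 15 of the 49 genes (30.6%) the 3 M libraries were below the 3 Y libraries without overlap, against 13.9% of all genes. In 4 genes (8.16%) they were above them, against 19.8%.

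Among 8 tested genes for the contents of the acrosome, 4 (50%) passed the test as lower in the M group, against 10.9% of all genes. Of these, 3 passed both thresholds (37.5% of the 8), against 5.25% of all genes. All 8 had a log2 fold change below 0, with a median of -1.08, in a role that was set after values had been seen. ACRV1 (SP-10), an acrosomal matrix protein of round spermatids, had an FPKM of 39.9, 34.4 and 60.1 in the Y libraries and of 11.6, 41.6 and 12.8 in the M libraries. M replicates 1 and 3 were below all Y libraries, but M replicate 2 lay between them, so that the groups overlapped. The log2 fold change of ACRV1 was -1.24 ± 0.49 (SE; adjusted p = 0.183, limma), and it was -0.91, short of passing the test, without M replicate 1.

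PRSS37, which resembles a trypsin-like protease and is needed for sperm function in mice, had an FPKM of 134, 110 and 99.6 in the Y libraries and of 18.8, 68.9 and 51.7 in the M libraries. The groups did not overlap. Its mean went from 115 ± 17.7 to 46.5 ± 25.5 (SD, n = 3 each), with a log2 fold change of -1.48 ± 0.45 (SE; adjusted p = 0.154, limma). TEX22, a protein of the testis, had an FPKM of 12.4, 14.3 and 11.5 in the Y libraries and of 2.84, 11.3 and 5.99 in the M libraries. M replicate 2 was just below the lowest Y library, and the log2 fold change was -1.12 ± 0.44 (SE; adjusted p = 0.183, limma).

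The other contents had differences of varied size. ACRBP, which binds proacrosin and helps to pack it into the granule, had an FPKM of 58.6, 46.3 and 62.7 in the Y libraries and of 19.3, 51.9 and 29.5 in the M libraries, with a log2 fold change of -0.84 ± 0.35 (SE; adjusted p = 0.192, limma). M replicate 2 lay within the Y libraries, and ACRBP passed the test in 1 of the 6 fits that left out a library. DKKL1 had an FPKM of 113, 87.3 and 102 in the Y libraries and of 43.9, 94.0 and 80.1 in the M libraries, and its log2 fold change of -0.54 did not pass the test (adjusted p = 0.283, limma). LYZL4, a lysozyme-like protein, and HYAL3, a hyaluronidase, had log2 fold changes of -1.23 and -1.05 that did not pass it either (adjusted p = 0.212 and 0.219, limma). PCSK4, a proprotein convertase of germ cells, had the smallest difference of the 8, with a log2 fold change of -0.53 (adjusted p = 0.234, limma), although its 3 M libraries (18.3, 35.3 and 30.7) were below its lowest Y library (36.5).

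**Figure D2:**
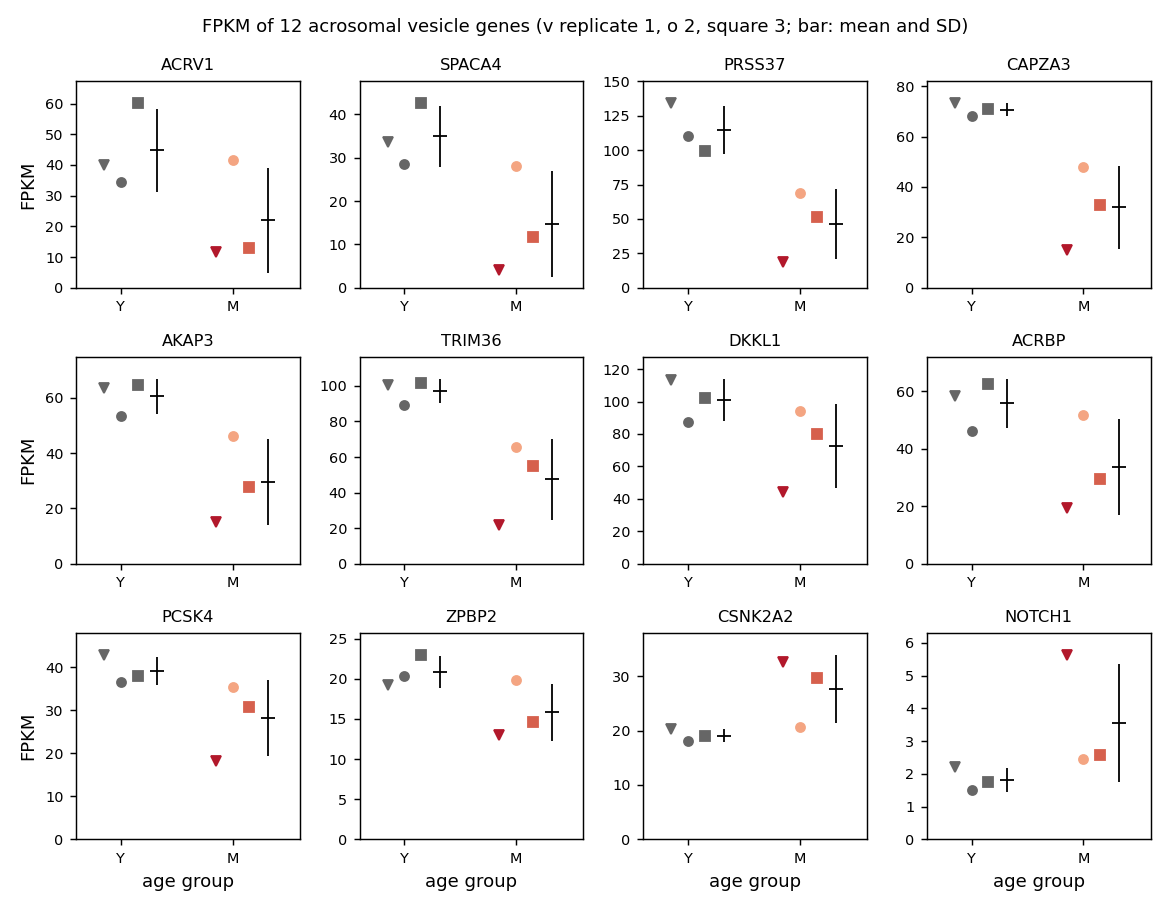
Each panel shows the FPKM of 1 gene in the 3 Y (grey) and 3 M (red) input libraries, with the mean and SD beside the points (triangle, replicate 1; circle, replicate 2; square, replicate 3); the vertical axes start at 0 and differ between panels. M replicate 1 is the lowest library in the 10 panels from ACRV1 to ZPBP2 and the highest for CSNK2A2 and NOTCH1.

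Of the 3 tested genes of the acrosomal membrane and of zona binding, SPACA4 passed both thresholds. SPACA4 is an anchored protein of the acrosomal membrane that takes part in the binding of sperm to the zona. It had an FPKM of 33.6, 28.6 and 42.6 in the Y libraries and of 4.19, 28.1 and 11.8 in the M libraries. M replicate 2 was close to the lowest Y library, and M replicate 1 was far below the other 5. The log2 fold change of SPACA4 was the lowest among the 49 genes, -1.61 ± 0.61 (SE; adjusted p = 0.174, limma), and it was -0.92 without M replicate 1. FAM170B, an acrosomal protein, had a log2 fold change of -1.12 (adjusted p = 0.234, limma), and ZPBP2, a zona pellucida-binding protein of the acrosomal matrix, one of -0.41 (adjusted p = 0.219, limma). Neither passed the test, and in both M replicate 2 lay within the Y libraries.

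The cytoskeletal and anchoring proteins of the sperm head and tail held 4 of the 10 genes, among 6 tested. This was 66.7%, against 5.25% of all genes tested, in a role that was set after values had been seen. The ubiquitin ligase TRIM36 was placed in this role and is among the 4. CAPZA3, the actin-capping subunit of male germ cells, had an FPKM of 73.2, 68.1 and 70.8 in the Y libraries and of 15.1, 47.9 and 32.8 in the M libraries. The SD was 2.54 over the Y libraries and 16.4 over the M libraries, and the groups did not overlap. Its log2 fold change was -1.29 ± 0.39 (SE; adjusted p = 0.154, limma), and its unadjusted p-value was the lowest among the 49 genes.

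AKAP3, which anchors protein kinase A in the fibrous sheath of the tail, had an FPKM of 63.7, 53.4 and 64.7 in the Y libraries and of 15.1, 46.1 and 27.9 in the M libraries. TRIM36 had an FPKM of 101, 89.4 and 102 in the Y libraries and of 21.9, 65.6 and 54.7 in the M libraries. SPACA9, a protein that lies inside sperm microtubules, had an FPKM of 14.5, 13.8 and 12.8 in the Y libraries and of 2.42, 9.14 and 7.98 in the M libraries. In these 3 genes the groups did not overlap, and M replicate 2 was the M library nearest to the Y libraries. The log2 fold changes were -1.16 ± 0.38 for AKAP3, -1.18 ± 0.39 for TRIM36 and -1.26 ± 0.46 for SPACA9 (SE; adjusted p = 0.157, 0.16 and 0.17, limma). ICA1L and RACGAP1, the latter a GTPase-activating protein of cell division, had log2 fold changes of -0.33 and -0.01 and did not pass (adjusted p = 0.327 and 0.974, limma).

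The subunits of the proton pump, which makes the vesicle acidic, went different ways. ATP6V1E2 is the form of the E subunit that prevails in the testis and ATP6V1E1 the form found in all tissues. ATP6V1E2 had an FPKM of 15.6, 12.8 and 15.1 in the Y libraries and of 3.65, 13.0 and 4.67 in the M libraries, with a log2 fold change of -1.24 ± 0.43 (SE; adjusted p = 0.167, limma). M replicates 1 and 3 were low and M replicate 2 lay within the Y libraries.

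ATP6V1E1 had an FPKM of 5.86, 6.20 and 4.73 in the Y libraries and of 8.82, 5.85 and 8.26 in the M libraries. Its log2 fold change was 0.43 ± 0.20 (SE; adjusted p = 0.227, limma), so that it did not pass the test, and the groups overlapped. The ratio of ATP6V1E2 to ATP6V1E1 in FPKM, a level per length, was 2.66, 2.07 and 3.19 in the Y libraries and 0.414, 2.21 and 0.565 in the M libraries. ATP6V1E2 was thus above this ATP6V1E1 row in 4 libraries and below it in M replicates 1 and 3. The symbol ATP6V1E1 stands on 5 identifiers, and the values are those of ENSBGRG00000000730, the row with the term. The other rows of the symbol are not given here, so the ratio holds for this row alone. The difference of the log2 ratio between the groups was -1.67, with an exact two-sided permutation p = 0.2 (n = 3 each), where 0.1 is the smallest value that 3 against 3 allows.

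ATP6V0A2, a membrane subunit of the pump, had an FPKM of 4.60, 5.30 and 4.78 in the Y libraries and of 8.26, 5.34 and 7.53 in the M libraries. The M libraries were above the Y libraries, M replicate 2 by a small margin, and the log2 fold change was 0.50 ± 0.19 (SE; adjusted p = 0.181, limma). It passed the test, but not with median centring, quantile normalization or the replicate number as a block, and it passed in 1 of the 6 fits that left out a library. Without M replicate 1 the log2 fold change was 0.37.

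**Figure D3:**
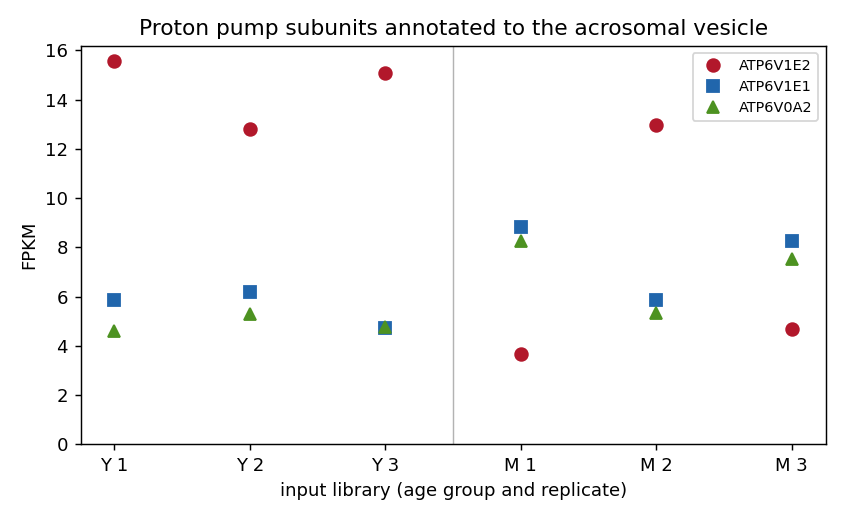
FPKM of the 3 proton pump subunits (vertical axis, from 0) in each input library (horizontal axis). ATP6V1E2 is the highest of the 3 in the Y libraries and M replicate 2, from 12.8 to 15.6, and the lowest in M replicates 1 and 3.

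The genes of exocytosis and vesicle traffic had a median log2 fold change of -0.10 over the 4 tested, and 0 passed both thresholds. RAB3A, a small GTPase of regulated exocytosis, was low throughout, with an FPKM of 0.302, 0.362 and 0.444 in the Y libraries and of 0.530, 0.696 and 0.713 in the M libraries. Its groups did not overlap, with the M libraries higher, and its log2 fold change of 0.67 did not pass the test (adjusted p = 0.234, limma). PPFIA3, a liprin of presynaptic sites, had a log2 fold change of -0.69 (adjusted p = 0.204, limma), which did not pass the test, although its M libraries were all below its Y libraries. GOLGA1, a golgin, and SV2B, a synaptic vesicle protein, had log2 fold changes of -0.08 and -0.11 and did not pass (adjusted p = 0.761 and 0.778, limma).

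The 9 kinases, receptors and enzymes had a median log2 fold change of -0.02. Both directions occurred among them. NOTCH1, a cell surface receptor, had an FPKM of 2.22, 1.50 and 1.75 in the Y libraries and of 5.63, 2.46 and 2.59 in the M libraries. M replicate 1 was far above the other 5, and the log2 fold change was 0.84 ± 0.34 (SE; adjusted p = 0.185, limma). It passed the test, but not with median centring or quantile normalization, nor without Y replicate 2, Y replicate 3 or M replicate 1. Without M replicate 1 the log2 fold change was 0.46. NOTCH1 is expressed in many cell types of a tissue.

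CSNK2A2, a catalytic subunit of casein kinase 2 whose loss in mice gives malformed sperm heads, had an FPKM of 20.3, 18.0 and 19.0 in the Y libraries and of 32.6, 20.6 and 29.7 in the M libraries. M replicate 2 was just above the highest Y library, and the log2 fold change was 0.51 ± 0.20 (SE; adjusted p = 0.181, limma). It passed the test in 1 of the 6 fits that left out a library. ABHD2, a lipase of the sperm membrane that progesterone activates, had an FPKM of 60.6, 54.2 and 65.9 in the Y libraries and of 22.5, 47.6 and 34.9 in the M libraries. The groups did not overlap, and the log2 fold change was -0.84 ± 0.27 (SE; adjusted p = 0.157, limma).

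CALCR, the calcitonin receptor, had a log2 fold change of -0.62 ± 0.21 (SE; adjusted p = 0.159, limma), with M libraries of 1.64, 2.29 and 1.51 FPKM below Y libraries of 2.62, 3.19 and 2.66. The other 5 genes of this role had groups that overlapped. They were CLK3, a dual-specificity kinase, with a log2 fold change of -0.38, the kinase STK31 with 0.16, the peptidase DPEP3 with 0.16, DLD, a dehydrogenase of mitochondria, with -0.03, and PRKACA, the catalytic subunit of protein kinase A that drives sperm capacitation, with -0.02. PRKACA stayed between 18.0 and 20.5 FPKM in the 6 libraries.

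**Figure D4:**
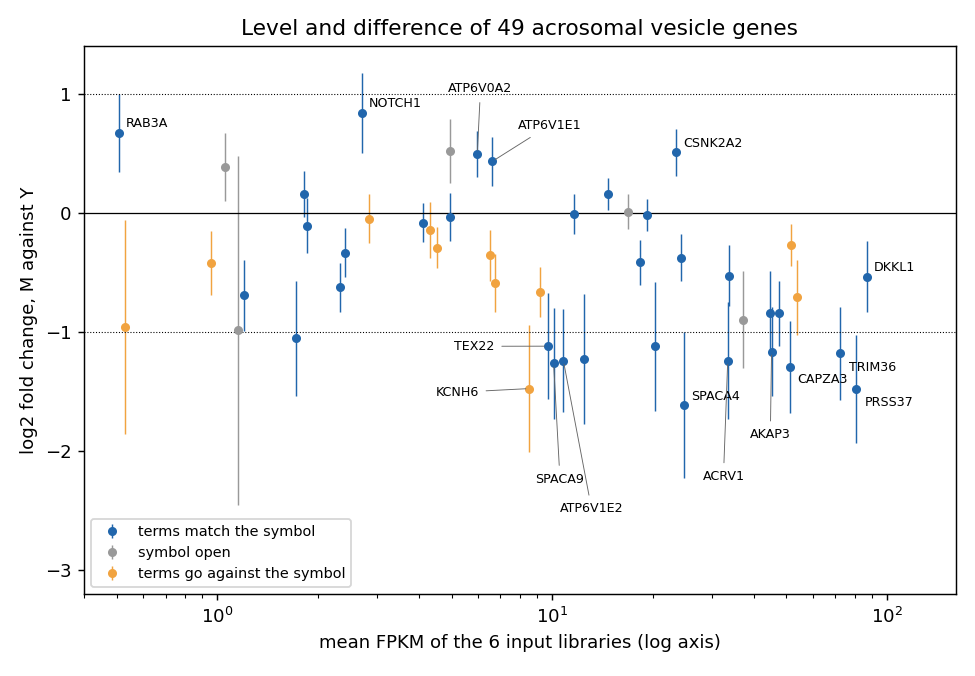
Mean FPKM of the 6 input libraries (horizontal log axis) against the log2 fold change, M minus Y (vertical axis; bars, SE; dotted lines, a fold change of 2), for the 49 tested genes, coloured by whether terms and symbol match. The 10 lower genes lie between a mean FPKM of 8.54 and 80.5, and NOTCH1, with 0.84, is the highest point.

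The 11 tested rows whose terms go against their symbol had log2 fold changes below 0 without exception, with a median of -0.42. The row listed as KCNH6 (ENSBGRG00000014745), whose terms are those of a peptidyl-dipeptidase of the renin-angiotensin system, had an FPKM of 16.9, 10.2 and 9.20 in the Y libraries and of 1.83, 8.89 and 4.26 in the M libraries. The groups did not overlap, by a small margin between M replicate 2 and Y replicate 3. Its log2 fold change was -1.47 ± 0.53 (SE; adjusted p = 0.168, limma).

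The row listed as ARSA (ENSBGRG00000006015) carries the terms of a serine protease that binds mannose and fucose, and in the RefSeq annotation of the assembly Bosgru_T2T1.0 the gene ACR stands among the 3 genes next to ARSA on 1 side. It had an FPKM of 68.4, 62.3 and 64.7 in the Y libraries and of 24.5, 61.4 and 41.7 in the M libraries. The groups did not overlap, M replicate 2 lay close to the Y libraries, and the log2 fold change, which did not pass the test, was -0.71 ± 0.32 (SE; adjusted p = 0.211, limma). The row listed as SAMD8 (ENSBGRG00000020806) and 3 further rows, listed as BTBD11 and FTO, carry the terms of a voltage-gated anion channel. Their log2 fold changes were -0.27 (SAMD8), -0.15 (BTBD11), -0.29 and -0.05 (FTO), and 0 of the 4 passed the test. These FTO rows say nothing of the demethylase of that name. The rows listed as HINT2, with terms of the spindle and of fertilization, and as TCF3, with terms of a phospholipid-translocating ATPase, passed the test with log2 fold changes of -0.67 and -0.59 (adjusted p = 0.154 and 0.192, limma). The rows listed as SLC35B4, TMEM63B (ENSBGRG00000008917) and FAM83E had log2 fold changes of -0.42, -0.36 and -0.96 and did not pass.

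Of the 5 tested rows whose symbol could not be judged from the terms, 0 passed the test, and their median log2 fold change was 0.01. The row listed as IQCF5 had an FPKM of 57.5, 35.9 and 47.0 in the Y libraries and of 12.9, 39.7 and 29.0 in the M libraries, with a log2 fold change of -0.90 (adjusted p = 0.216, limma). The rows listed as LYPD3, LYNX1 and PGRMC1 had log2 fold changes of 0.01, 0.39 and 0.52. The row listed as DEFB108B ranged from 0 to 3.14 FPKM in the Y libraries and from 0 to 1.06 in the M libraries. Without the rows of open or conflicting symbols, 9 of 33 genes (27.3%) were lower by both thresholds, against 5.25% of all genes tested. The median log2 fold change of the 33 genes was -0.54.

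Other GO terms of the genes were taken as a description. The 9 tested genes with the term binding of sperm to zona pellucida had a median log2 fold change of -0.29. Of these 9, 8 were below 0 and 1 was past both thresholds. Their median is the value of a row listed as FTO (ENSBGRG00000024270), whose terms go against its symbol. The 5 genes of the acrosomal membrane and the 4 of the acrosome reaction had medians of -0.84 and -0.78, with each gene below 0 and 1 past both thresholds in each of these sets. The 12 genes with the term plasma membrane had a median of 0.08, with 5 below 0, and the 4 with protein serine/threonine kinase activity one of 0.07. Over all genes tested, 46.5% had a log2 fold change below 0 and 5.25% were lower by both thresholds.

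Acrosome genes that the term does not hold were read from a list of 72 symbols, of which 46 were in the table, 34 stood on a single identifier and 31 were tested. Of the 31, 10 (32.3%) were lower in the M group by both thresholds, against 5.25% of all genes tested, and 0 were higher, against 4.01%. The log2 fold change was below 0 for 25 (80.6%), against 46.5% of all genes. The median log2 fold change was -0.65. Without M replicate 1, 1 gene was lower by both thresholds, against 1.31% of all genes. Without Y replicate 1, Y replicate 3 or M replicate 3 it was 1, 2 and 4 genes. Over all genes, 2.92%, 3.1% and 4.34% were lower in these 3 fits. The largest fall was that of ACTL9, an actin-like protein of the acrosome, with an FPKM of 95.2, 97.5 and 82.3 in the Y libraries and of 14.2, 47.4 and 31.8 in the M libraries. Its groups did not overlap, and its log2 fold change was -1.72 ± 0.41 (SE; adjusted p = 0.154, limma).

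The genes past both thresholds outside the term included CABS1 (-1.32), ATP1A4 (-1.27), the sodium pump of sperm, and CRISP2 (-1.16), a cysteine-rich protein of the acrosome. SPACA1, a membrane protein of the acrosome, had an FPKM of 34.4, 28.8 and 36.1 in the Y libraries and of 7.07, 34.2 and 11.7 in the M libraries. Like ACRV1, it was low in M replicates 1 and 3 and within the Y libraries in M replicate 2, and its log2 fold change, just short of passing the test, was -1.21 ± 0.52 (SE; adjusted p = 0.2, limma). ZPBP, a zona pellucida-binding protein, had a log2 fold change of -0.43 and did not pass (adjusted p = 0.368, limma).

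Markers of several cell types differed between the groups as well, in both directions. Listed markers were usable where the symbol stood on a single identifier. These were 2 of 9 for elongating spermatids, 3 of 6 for Sertoli cells and 1 of 4 for Leydig cells. For spermatogonia they were 3 of 6, for spermatocytes 5 of 6 and for peritubular cells 4 of 4. For macrophages they were 4 of 5 and for endothelium 3 of 4. Both usable markers of elongating spermatids, ODF1 and GAPDHS, were lower in the M group. Their summed FPKM was 159 to 180 in the Y libraries and 31.7 to 111 in the M libraries. The 3 Sertoli cell markers (SOX9, INHA and GATA4) were all higher in the M group at an unadjusted p-value under 0.05, with a summed FPKM of 68.8 to 79.3 against 98.5 to 240.0. The 4 peritubular markers (ACTA2, MYH11, DES and TAGLN) were so as well, with sums of 16.3 to 18.1 against 21.3 to 39.9. The 5 spermatocyte markers had sums of 70.2 to 74.9 against 59.6 to 74.1, and 0 of them passed. Of 4 macrophage markers 2 were lower, CD163 and AIF1. The summed FPKM of the 4 was 15.7 to 16.4 against 5.84 to 11.3. Most of it was AIF1, at 12.8 to 14.2 against 3.11 to 9.69. The libraries are of whole testis, and which cells gave the AIF1 values was not tested. The summed FPKM of the other 3 markers overlapped between the groups, at 1.75 to 3.67 against 1.63 to 2.95. This split was made after the values were seen. Of these 3, CD68 and CSF1R overlapped. CD163 did not, at 0.556, 1.18 and 0.915 in the Y libraries and 0.255, 0.368 and 0.356 in the M libraries. For Leydig cells, the single usable marker, STAR, had a log2 fold change of -0.92. The 3 markers each of spermatogonia and of endothelium had 0 genes past the test, with sums of 32.4 to 38.9 against 37.3 to 67.8 and of 5.86 to 8.28 against 7.01 to 9.95. As with AIF1, a single gene made up most of several sums. It was GAPDHS for elongating spermatids, INHA for Sertoli cells, PIWIL1 for spermatocytes, DMRT1 for spermatogonia and VWF for endothelium. No marker on these lists was at 0 in all 6 libraries. The part of these cell types in the result on the acrosomal vesicle genes was not tested.

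**Figure D5:**
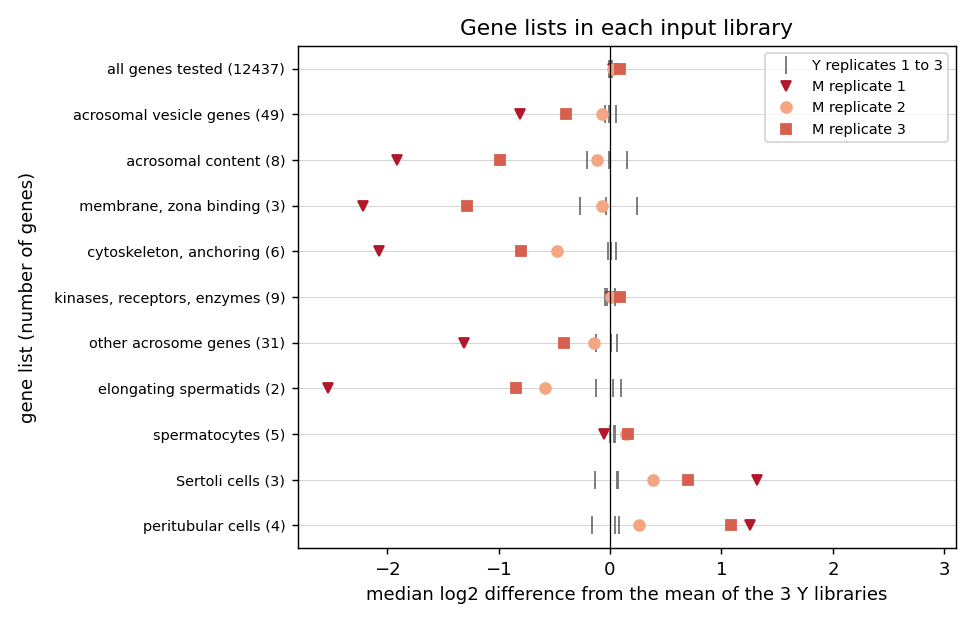
For each gene list (vertical axis, number of genes in brackets), the horizontal axis is the median over its genes of log2(FPKM + 0.1) minus the mean of the 3 Y libraries (ticks, Y libraries; symbols, M replicates 1 to 3). Acrosomal content, membrane and cytoskeleton genes lie left of 0 in M replicates 1 and 3, as do elongating spermatid markers, while Sertoli and peritubular markers lie right of 0.

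Differential m6A peaks between the ages stood on 5 of the 49 tested genes (10.2%), against 9.29% of all genes tested, so that the share was near that of the background. The deposited table gives positions, with no size or test of the difference. Coordinates are those of LU_Bosgru_v3.0, and all 5 genes lie on the minus strand. The peak of ATP6V0A2 was at chr16:57308619-57309503 in exon 8 of 20. The peak of NOTCH1 was at chr9:13473956-13476112 in exon 14 of 36. Both genes had higher FPKM in the 3 M libraries than in the 3 Y libraries.

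The peak of RACGAP1 was at chr5:77660121-77661364 in exon 7 of 15, and that of the row listed as KCNH6 at chr19:17562819-17564696 in exon 9 of 13. The shortest of the 5 peaks, of 249 bp, was that of GOLGA1 at chr9:4216484-4216732 in the 3′ UTR. The widths, introns included, reached 2157 bp for NOTCH1. RACGAP1 and GOLGA1 had log2 fold changes of mRNA near 0. Of the 10 genes that were lower in the M group by both thresholds, the row listed as KCNH6 was the single one with a differential peak.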

How the data were processed

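FPKM per gene and input library were deposited by the authors. Per the methods, reads were trimmed with Trimmomatic, rRNA reads were removed with SortMeRNA, and reads were aligned with HISAT2 (2.0.4 per the submitters' processing notes) to LU_Bosgru_v3.0, with uniquely mapped reads kept. The program behind FPKM is not given in the sources used here. Fragment numbers are not in the table, so depth is unknown. The spacing of low FPKM values differed from that of Y replicate 1 by -0.13 to 0.01 on the log2 scale, and whole counts were not recovered. Differential peak positions and widths (bp) were used as deposited by the authors, who called and compared peaks with MeTDiff and annotated them with ChIPseeker. IP libraries entered through these peaks alone. The peak lists per age held 7 peaks each and were not used.

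The 12437 genes that averaged 0.5 FPKM or more entered a fit in R 4.3.3 with limma 3.58.1 (lmFit, eBayes with trend) on log2(FPKM + 0.1), two-sided, with Benjamini-Hochberg adjustment over all of them. Fold changes on this scale understate those of low genes. Each library is 1 animal. The fit was tested on simulated data. Other steps ran in Python 3.11.15 with scipy 1.17.1, numpy 2.4.6 and pandas 2.3.3, and figures were drawn with matplotlib 3.10.9.

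Named genes were the 3 markers, those past both thresholds (unadjusted p under 0.05 and a fold change over 2), the 10 highest by mean FPKM, the 3 largest falls and rises without overlap, and those with a differential peak. The remaining genes are named to account for each. The genes and lists were chosen with earlier results of these data known, and the roles and the match of terms to symbols were set after values had been seen. Lists other than the term used symbols on a single identifier. Alternatives were other pseudocounts, filters, scalings, eBayes settings, the replicate number as a block, single libraries left out, and wider or narrower gene sets.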

Additional observations from a re-analysis of the deposited data

How the results depend on the processing

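The 10 lower genes numbered 8 to 15 under the other pseudocounts, filters, scalings, eBayes settings, fold threshold and gene sets, and each of the 10 had a log2 fold change below 0 in every setting run. The 10 genes had been picked for a large fall, so their sign is no separate support. Of them, 9 were still called with a pseudocount of 1 and 7 with quantile normalization. Leaving out 1 library moved the count of lower genes between 0 (without M replicate 1) and 18 (without M replicate 2), over all genes between 163 and 1117 by the same libraries, that of higher genes between 0 and 1, that of adjusted p-values under 0.05 between 0 and 19 (over all genes between 0 and 2403, the latter also without M replicate 2), the median log2 fold change between -0.60 and -0.22, the count of lower genes outside the term between 1 and 14, and the number of genes without overlap, in either direction, between 19 and 39, where 39 is without M replicate 2. For the counts without overlap, the share over all genes was not taken with a library left out. A group with 1 library fewer overlaps less readily for any gene, so the 39 is no result about these genes. A fold threshold of 1.5 gave 15 lower genes and 1 higher gene among the 49. With peaks of at most 1000 bp, 2 of the 54 genes had a differential peak, against 5 of 54 with all peaks. With any GO term naming the acrosome, 11 of a wider set of 83 genes had one. The shares over all genes were not taken for these settings, so these counts are no result about the genes. RACGAP1, near 0, turned to 0.066 under quantile normalization and lay between -0.11 and 0.14 without single libraries, and GOLGA1 lay between -0.16 and 0.051. Over all genes, median centring gave 733 lower and 404 higher genes by both thresholds and a pseudocount of 1 gave 378 and 123, against 653 and 499. The causes were not tested.

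The replicate numbers are shared by the groups, but same-numbered libraries did not deviate together (correlations of -0.02, -0.09 and 0.01 across genes). With the replicate number as a block, 10 genes were lower, 0 were higher and 0 had an adjusted p-value under 0.05. ACRBP and ATP6V0A2 no longer had an unadjusted p-value under 0.05 with the block. The table gives no fragment counts, which limits what can be said of genes listed at or near 0.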
